A study of Homo sapiens with 6 samples.

Results

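The 10 genes described here are targets of the tumor suppressor p53: MDM2, MDM4, TP53INP1, TP53I3, AEN, PHLDA3, PLK3, GDF15, TIGAR and ZMAT3. Their probes were found by symbol, as the probes whose single gene symbol in the annotation of the array, with older symbols updated, named 1 of these genes. This gave 13 of the 31741 probes and 10 of the 18336 genes with a probe. MDM2, MDM4 and ZMAT3 had 2 probes each and the other genes had 1. TIGAR was listed under an older symbol.

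All samples were TFK-1 cells, a human line established from extrahepatic cholangiocarcinoma (ECCA), a cancer of the bile duct outside the liver. The cells had been made into stable lines with lentivirus, at a multiplicity of infection of 20 for 24 h, and selected with 1 μg/ml of puromycin. In 3 samples HOXA5, a homeobox transcription factor, was overexpressed, and 3 were labelled as normal control, for which the methods name a negative control virus. Each sample was hybridized to 1 single-colour array to find transcripts that differ when HOXA5 is overexpressed, and neither the labels nor the methods state for the arrays that replicates came from separate cultures, so the p-values cover the spread between arrays, which may be only technical.

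In normal cells p53 is kept scarce by MDM2, a ubiquitin ligase that binds it and marks it for degradation. After DNA damage and other stress p53 accumulates and activates genes for growth arrest, repair, apoptosis and metabolism, and also MDM2, which closes a negative feedback loop. Many of its targets are also induced by other factors, among them GDF15, which responds to the integrated stress response.

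Promoter sequences are shown because p53 activates its targets through a known DNA element near their starts. RefSeq windows on GRCh38.p14, from 250 bases before to 50 bases after a start, were given for 8 of the 10 genes, in 12 windows. They were searched for the p53 response element, a pair of 10-base half-sites separated by 0 to 13 bases, with at most 3 mismatches among the 20 bases and with the central C and G of each half-site kept. The half-site reads the same on both strands, so 1 search covers both. Of all 35116 windows, 12.8% held such a match, and among the 12 windows it was 5, in MDM2, AEN, GDF15 and ZMAT3. The best match of each gene is printed 5′ to 3′ with its half-sites in capitals, and for MDM2 with 15 bases on either side.
MDM2, chr12:68808908-68808957, plus strand: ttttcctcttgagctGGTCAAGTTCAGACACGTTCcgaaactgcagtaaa
AEN, chr15:88621306-88621325, plus strand: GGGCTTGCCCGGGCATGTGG
GDF15, chr19:18386186-18386205, plus strand: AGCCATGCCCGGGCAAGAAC
ZMAT3, chr3:179071867-179071892, minus strand: GGGCCTGCTCcgccaaGCACATGCGC

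Each of the downstream MDM2 windows held 2 matches that overlap each other, so they are not separate elements. The one printed had 2 mismatches and lay in the windows of the 2 downstream starts, 94 and 101 bases before them. The internal promoter of MDM2 in this region is known to respond to p53. The AEN match had 2 mismatches, began 34 bases before the start and held an exact half-site, as did 6.63% of all windows. The GDF15 match had 3 mismatches and began 28 bases past the start, and the ZMAT3 match had 3 mismatches and a spacer of 6 bases and began 83 bases before it. No match was found in the windows of MDM4, TP53I3, PLK3 and TIGAR. These are matches of letters and were not tested as binding sites.

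The median raw intensity of a control array was 126 to 180 and that of a HOXA5 array 95 to 177. The HOXA5 probe itself read 110, 118 and 49 on control replicates 1, 2 and 3 and 585, 502 and 312 on the HOXA5 replicates, a log2 fold change of 1.94 ± 0.12 (SE, n = 3 per group; limma, adjusted p = 0.000766). Of 6 measured biliary epithelial markers, 5 were detected on all 6 arrays and 3 were higher in HOXA5 samples, against 13.1% of all genes. The summed raw intensity of the 6 markers was 53145 to 70741 in control and 59181 to 88437 in HOXA5 samples. KRT19, at 35520 to 57481, made up most of each sum, while KRT7 read 55 to 185 and KRT8 103 to 281. The corresponding sums were 363 to 608 and 431 to 943 for 4 hepatocyte markers, 789 to 1188 and 696 to 1518 for 4 fibroblast markers, 231 to 377 and 192 to 592 for 3 leukocyte markers, and 296 to 530 and 198 to 581 for 3 endothelial markers, each with 1 marker detected on all 6 arrays. Within these lists ALB, CYP3A4, COL1A2, DCN, PDGFRB, PTPRC and CD3E were dim on every array, that is, without the deposited flag 0, whose dimmest probe read between 58 and 67 in raw intensity on each array. The hepatocyte marker APOA1 was higher in HOXA5 samples, by 0.89 ± 0.19 on the log2 scale (limma, adjusted p = 0.0279). Another APOA1 probe gave -0.03 ± 0.14 (adjusted p = 0.911). No fibroblast, leukocyte or endothelial marker passed the test.

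Of the 10 genes, 4 were higher in HOXA5 samples (GDF15, PLK3, TP53INP1 and ZMAT3), 1 was lower (TP53I3), and 5 did not pass the test (MDM2, MDM4, AEN, PHLDA3 and TIGAR). Over all 18336 genes, 13.1% were higher and 11% were lower by the same test, limma on quantile normalized log2(raw intensity + 50) with an adjusted p under 0.05. GDF15, PLK3 and TP53INP1 rose by at least 2-fold, against 3.83% of all genes, and 0 of the 10 fell by as much, against 2.39%. The median log2 fold change was 0.13 for the 10 genes and -0.01 for all genes. The normalized values of the groups did not overlap for 7 of the 10 genes, against 41.4% of all genes. All of the genes were detected on all 6 arrays by the brightest probe, which stands for the gene in these counts.

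**Figure D1:**
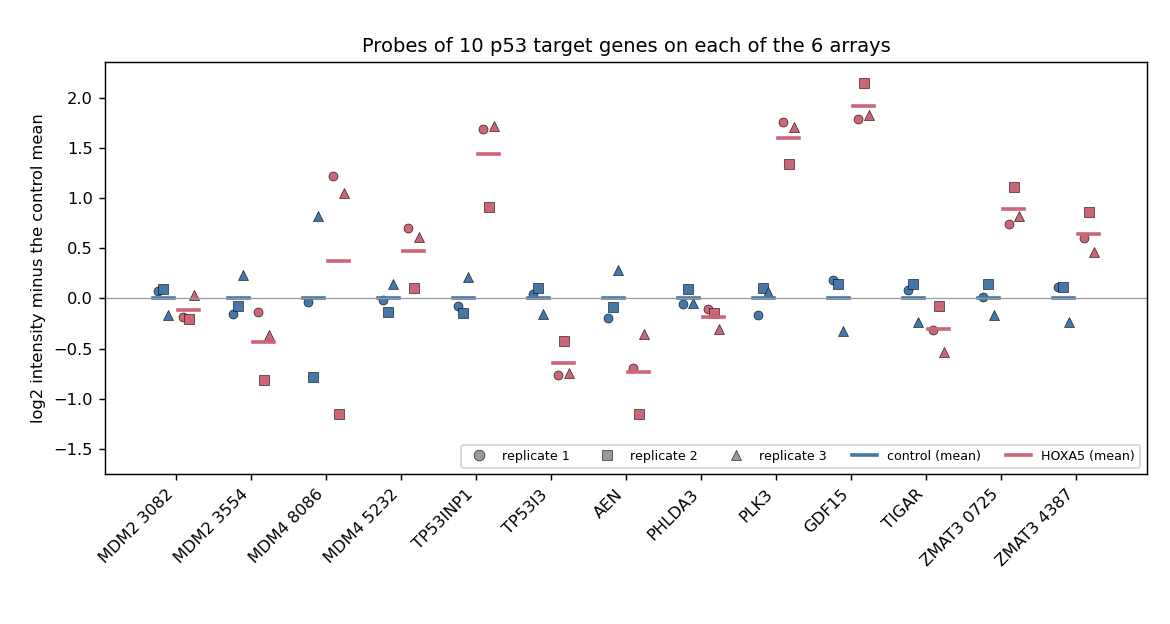
Normalized log2 intensity of each of the 13 probes on each of the 6 arrays, minus the control mean of that probe, with a bar at the mean of each group (control blue, HOXA5 red; symbols mark replicates 1, 2 and 3). GDF15, PLK3 and TP53INP1 lie highest, and TP53I3, AEN and PHLDA3 lie below every control array on every HOXA5 array. The first MDM4 probe spreads more widely than its groups differ. Genes with 2 probes carry the last digits of the probe identifier.

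MDM2 is both a target and the main inhibitor of p53. Its brighter probe, PH_hs_0023082, read 258, 246 and 148 on control arrays and 204, 199 and 136 on HOXA5 arrays. Normalized, these were 8.07, 8.09 and 7.82 against 7.81, 7.79 and 8.02 on the log2 scale, so the groups overlapped, and HOXA5 replicate 3 lay above control replicate 3. The log2 fold change was -0.12 ± 0.11 (SE, n = 3 per group; 95% interval -0.38 to 0.15; limma, adjusted p = 0.517).

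The second MDM2 probe, PH_hs_0043554, read 197, 197 and 194 in control and 197, 105 and 86 in HOXA5 samples. HOXA5 replicate 1 read as high as the controls, while the other two were lower. Its log2 fold change was -0.43 ± 0.20 (95% interval -0.94 to 0.07; adjusted p = 0.203). The 95% intervals of both probes held 0, with lower bounds of -0.38 and -0.94 and upper bounds of 0.15 and 0.07 on the log2 scale. The mean of both probes gave -0.28 ± 0.11 (adjusted p = 0.130). Of the 78 values of the 13 probes, 4 carried a deposited detection p over 0.01 although they were flagged as detected, and 3 of these 4 were control values of MDM2 (0.0452, 0.0198 and 0.111).

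MDM4, a relative of MDM2 without ligase activity of its own, binds p53 and blocks its activation domain. Probe PH_hs_0048086 read 879, 486 and 1262 in control and 2173, 373 and 1218 in HOXA5 samples. Replicate 2 was the lowest in both groups, and the spread within each group (SD 0.81 and 1.32 on the log2 scale) exceeded the difference between them. The log2 fold change was 0.37 ± 0.76 (95% interval -1.52 to 2.26; adjusted p = 0.797), an interval that holds changes of either direction. The sign of the change turned when control replicate 2 or HOXA5 replicate 1 was left out (-0.020 and -0.048).

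The dimmer MDM4 probe, PH_hs_0025232, read 84, 62 and 58 in control, where it was dim on replicates 2 and 3, and 161, 91 and 74 in HOXA5 samples. The groups overlapped after normalization, at a log2 fold change of 0.47 ± 0.18 (adjusted p = 0.127). Without HOXA5 replicate 2 it was 0.66 and passed the test (adjusted p = 0.0114).

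TP53INP1 encodes a stress-induced nuclear protein that promotes the phosphorylation of p53 and takes part in autophagy. It read 3391, 3273 and 3337 on control arrays and 10763, 6015 and 7371 on HOXA5 arrays. The controls lay close together and every HOXA5 array was above them, with replicate 2 the lowest. TP53INP1 rose by 1.44 ± 0.25 on the log2 scale, 2.71-fold (95% interval of the log2 value 0.83 to 2.05; adjusted p = 0.0130). The call was lost without control replicate 1 or 2 (adjusted p = 0.0591 and 0.0532) and under the methods' t-test (0.0530), with changes of 1.28 to 1.71 over all 15 alternatives.

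TP53I3 and AEN are linked to cell death. TP53I3, an oxidoreductase linked to the generation of reactive oxygen species, was the gene of the 10 that fell. It read 314, 312 and 190 in control and 154, 208 and 84 in HOXA5 samples, and after normalization 8.30, 8.37 and 8.11 against 7.50, 7.84 and 7.52 on the log2 scale. Raw values of the groups overlapped and normalized values did not. TP53I3 fell by 0.64 ± 0.12 on the log2 scale, 1.56-fold (adjusted p = 0.0188). The value of HOXA5 replicate 3 carried a detection p of 0.424.

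The call of TP53I3 was lost under 6 of 15 alternatives, although its log2 fold change stayed between -0.75 and -0.53. These were the authors' normalized values (adjusted p = 0.176), the methods' t-test (0.0599), and the fits without control replicate 1 (0.0778), control replicate 2 (0.0692), HOXA5 replicate 1 (0.0607) or HOXA5 replicate 3 (0.0603).

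AEN, an exonuclease that degrades nucleic acids during apoptosis, read 1436, 1556 and 1554 in control and 1008, 679 and 785 in HOXA5 samples. Every HOXA5 array was below every control array, before and after normalization. The log2 fold change was -0.73 ± 0.23 (95% interval -1.31 to -0.15), larger in size than that of TP53I3, and it did not pass over all probes (adjusted p = 0.0854). It passed with median scaling (adjusted p = 0.0459), 75th percentile scaling (0.0418), the authors' normalized values (0.0351), detected probes only (0.0491) and the replicate number as a block (0.0300).

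PHLDA3 and PLK3 act in signalling. PHLDA3, a small protein that keeps the survival kinase AKT from the membrane, read 207, 221 and 147 in control and 194, 187 and 87 in HOXA5 samples. After normalization the groups were apart by a narrow margin, with 7.80, 7.96 and 7.82 in control and 7.76, 7.72 and 7.55 in HOXA5 samples. The log2 fold change was -0.18 ± 0.08 (95% interval -0.38 to 0.02; adjusted p = 0.185), and it passed under 0 of 15 alternatives.

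PLK3, a polo-like kinase of the stress response that can phosphorylate p53, read 2438, 2998 and 2294 in control and 8922, 6246 and 5667 in HOXA5 samples. The lowest HOXA5 array was above the highest control array. PLK3 rose by 1.60 ± 0.14 on the log2 scale, 3.03-fold (95% interval 1.26 to 1.95; adjusted p = 0.00174), and it passed under all 15 alternatives with a change of 1.46 to 1.73.

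GDF15, a secreted member of the TGF-β superfamily that circulates as a stress hormone, had the largest change among the 10 genes. It read 13654, 14043 and 7754 on control arrays and 39071, 48568 and 27518 on HOXA5 arrays. Replicate 3 was the lowest in both groups, and the groups were far apart. GDF15 rose by 1.92 ± 0.18 on the log2 scale, 3.79-fold (95% interval 1.48 to 2.36; adjusted p = 0.00198). It passed under all 15 alternatives, with a change of 1.76 to 2.02.

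TIGAR, a phosphatase that lowers the glycolytic activator fructose-2,6-bisphosphate, read 5198, 5674 and 3354 in control and 3877, 4122 and 2150 in HOXA5 samples. Its groups overlapped after normalization, since HOXA5 replicate 2 lay above control replicate 3. The log2 fold change was -0.31 ± 0.16 (95% interval -0.69 to 0.08; adjusted p = 0.245), and of 15 alternatives it passed only with the replicate number as a block (adjusted p = 0.0442).

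ZMAT3 encodes a zinc finger protein that binds RNA and controls the stability and splicing of other transcripts. Probe PH_hs_0060725 read 2521, 2829 and 1736 in control and 4108, 4815 and 2833 in HOXA5 samples. Probe PH_hs_0024387 read 848, 837 and 489 in control and 1226, 1337 and 682 in HOXA5 samples. Both probes were higher on every HOXA5 array after normalization. Their log2 fold changes were 0.89 ± 0.13 (1.85-fold; adjusted p = 0.00793) and 0.64 ± 0.15 (1.56-fold; adjusted p = 0.0329). The first probe lost its call with the authors' normalized values (adjusted p = 0.0697), and the second under 6 of 15 alternatives.

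**Figure D2:**
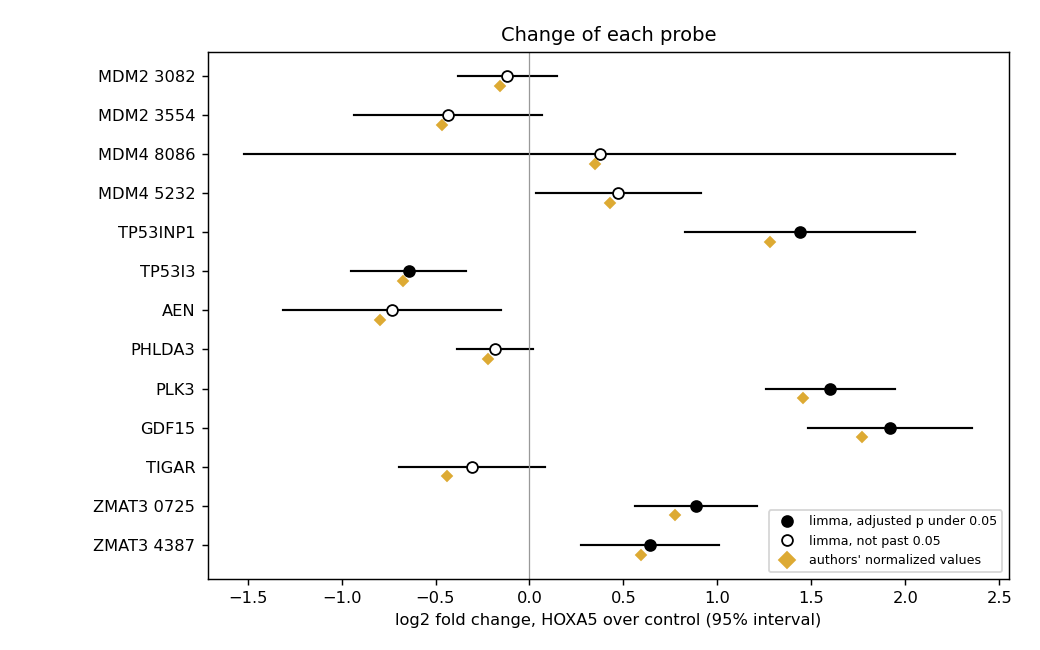
Log2 fold change of HOXA5 over control for each of the 13 probes with its 95% interval (limma; filled circles passed an adjusted p of 0.05), and the same change from the authors' normalized values (diamonds). The intervals of GDF15, PLK3, TP53INP1, both ZMAT3 probes and the second MDM4 probe lie above 0, those of TP53I3 and AEN below, and the diamonds lie slightly lower than the circles.

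Set beside the promoters, the calls went both ways. Of the 4 genes with a match to the response element near a start, GDF15 and ZMAT3 rose, while MDM2 and AEN did not pass the test. PLK3 and TP53I3, which changed in opposite directions, had no match, which says only that these letters are not in the windows searched. TP53INP1, which rose, and PHLDA3, which did not pass, had no window in the search.

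A wider list of 62 other p53 targets was measured for 60 genes, of which 14 were higher (23.3%), 5 were lower (8.33%) and 41 did not pass. Of the 41, 4 were dim on all 6 arrays, so a change of these could not be read. Over all genes the shares were 13.1% higher and 11% lower. Of the 60, 7 rose and 0 fell by at least 2-fold, against 3.83% and 2.39% of all genes. The groups did not overlap for 24 of the 60, near the share of 41.4% over all genes, and the median log2 fold change was 0.09. The list was chosen with results of these data known, so no test of it is given.

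The 4 other targets with the largest rise were IGFBP3, BBC3, SESN2 and GADD45A. IGFBP3, which binds insulin-like growth factors, rose by 2.30 ± 0.21 on the log2 scale (adjusted p = 0.00196), while its other probe gave 0.67 ± 0.27 (adjusted p = 0.149). BBC3, the proapoptotic BCL2 family member PUMA, rose by 2.04 ± 0.20, from 397, 511 and 427 in control to 2764, 1754 and 1238 in raw intensity. SESN2, an inhibitor of mTORC1 signalling, rose by 1.99 ± 0.13, and GADD45A, which acts in growth arrest and repair, by 1.80 ± 0.16. Each of these passed under all 15 alternatives by the probe used.

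Among the other targets that passed by the probe used, the 4 with the largest fall were FAS, RPS27L, PIDD1 and ACER2. FAS, a death receptor, read 190, 150 and 125 in control and 60, 46 and 33 in HOXA5 samples. It was dim on every HOXA5 array, so its fall is given as at least 1.65-fold lower (adjusted p = 0.00335), the control mean over the higher of the lowest detected signal and the probe's own value on each HOXA5 array. RPS27L, a ribosomal protein relative that affects the turnover of MDM2, fell by 0.78 ± 0.10 (adjusted p = 0.00498). PIDD1, a death domain protein of the PIDDosome, fell by 0.51 ± 0.10 (adjusted p = 0.0213), and it lost its call under 5 of 15 alternatives. ACER2, an alkaline ceramidase, fell by 0.46 ± 0.11 (adjusted p = 0.0373), and it lost its call under 10 of 15 alternatives. Some targets that did not pass had larger differences, such as TRIAP1, named after its values were seen, at -0.91 ± 0.44 (adjusted p = 0.220), whose other probe fell by 1.01 ± 0.12 (adjusted p = 0.00460).

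CDKN1A, the cell cycle inhibitor p21 and the classical target of p53, read 6753, 6645 and 4166 in control and 8619, 14419 and 5552 in HOXA5 samples. Its normalized groups did not overlap. The log2 fold change was 0.85 ± 0.27 and did not pass (adjusted p = 0.0851), and the other probe gave 0.44 ± 0.47 (adjusted p = 0.592). The first probe passed with detected probes only (adjusted p = 0.0458) and, at 0.56, without HOXA5 replicate 2 (adjusted p = 0.0374), the array with its highest value.

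**Figure D3:**
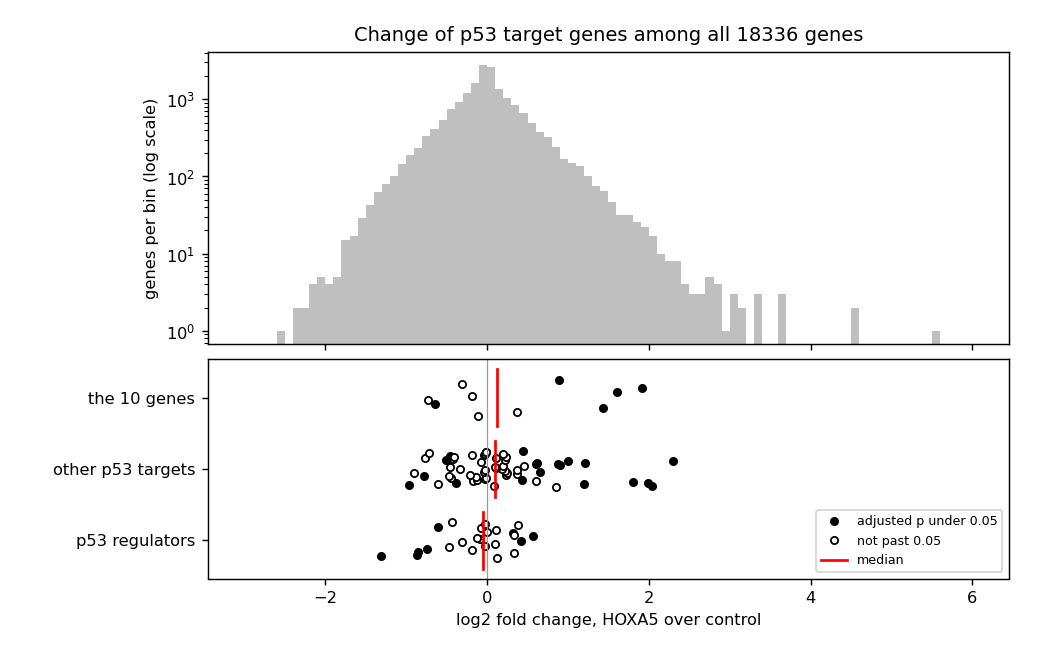
Log2 fold change of HOXA5 over control for all 18336 genes (top, number of genes per bin on a log scale) and for single genes of the 10 targets, the 60 other p53 targets and the 24 p53 regulators (bottom; filled circles passed an adjusted p of 0.05, red lines mark medians, FAS is at its fitted value). Medians of the 3 lists were 0.13, 0.09 and -0.05, near the centre of all genes, while single targets reach 2.30.

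Relatives, ligases and cofactors of p53 formed a list of 26 genes, of which 24 were measured, and the p53 gene itself was not analysed here. Of the 24, 3 were higher (12.5%), 5 were lower (20.8%) and 16 did not pass, against 13.1% higher and 11% lower of all genes, with a median log2 fold change of -0.05. RPL11, among the 16, was saturated on all 6 arrays, so a change of it could not be read. TP73, a p53 relative with many of the same targets, fell by 1.31 ± 0.14 (adjusted p = 0.00302), and its other probes gave -0.43 ± 0.28 and -0.88 ± 0.26 (adjusted p = 0.356 and 0.0726), the latter dim on every HOXA5 array.

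USP7, a deubiquitinase that stabilizes both MDM2 and p53, fell by 0.87 ± 0.08 (adjusted p = 0.00189), but its other probes gave -0.17 ± 0.22 and -0.22 ± 0.17 (adjusted p = 0.652 and 0.450). CDKN2A, the locus of the MDM2 inhibitor ARF and the kinase inhibitor p16, read 1468, 1708 and 1093 in control and 869, 792 and 470 in HOXA5 samples and fell by 0.86 ± 0.09 (adjusted p = 0.00290). Which of its transcripts the probe reads was not analysed here. TP73, USP7 and CDKN2A passed under all 15 alternatives by the probe used.

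On the higher side, PPP1R13B, the p53 cofactor ASPP1, rose by 0.57 ± 0.08 (adjusted p = 0.00712). HIPK2, a kinase that phosphorylates p53, rose by 0.41 ± 0.10 (adjusted p = 0.0389) and lost its call under 10 of 15 alternatives, and its other probes gave -0.30 ± 0.10 and -0.27 ± 0.18 (adjusted p = 0.0865 and 0.361). RPL5, a ribosomal protein that binds MDM2, rose by 0.32 ± 0.08 (adjusted p = 0.0440) and lost its call under 14 of 15 alternatives.

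Targets of the integrated stress response are given beside GDF15 and SESN2. Of 14 such genes, 8 were higher (57.1%), each by at least 2-fold, 0 were lower and 6 did not pass, with a median log2 fold change of 1.72. Over all genes 13.1% were higher, 3.83% by at least 2-fold, and 11% were lower. SESN2 belongs to both lists. VLDLR, among the 6, read 8, 8 and 7 in control and 7, 10 and 65509 in HOXA5 samples, so its change could not be read. ASNS, among the 8, was saturated on 1 HOXA5 array. DDIT3, the transcription factor CHOP, read 2959, 3370 and 2263 in control and 65513, 65509 and 54278 in HOXA5 samples. It was saturated on 2 of the HOXA5 arrays, so its rise of 4.52 on the log2 scale is a lower limit. ATF4, which acts upstream of it, gave 0.22 ± 0.11 (adjusted p = 0.232) and did not pass. Its probe read 50289, 52910 and 48088 in control and 61466, 53618 and 55222 in HOXA5 samples. These values lie close to the top of the scale, which limits the rise this probe could show. The other ATF4 probe read 1475, 1569 and 861 in control and 1617, 1530 and 723 in HOXA5 samples. It gave 0.09 ± 0.18 (adjusted p = 0.794) and did not pass either. The part of this response in the rise of GDF15 was not tested.

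**Figure D4:**
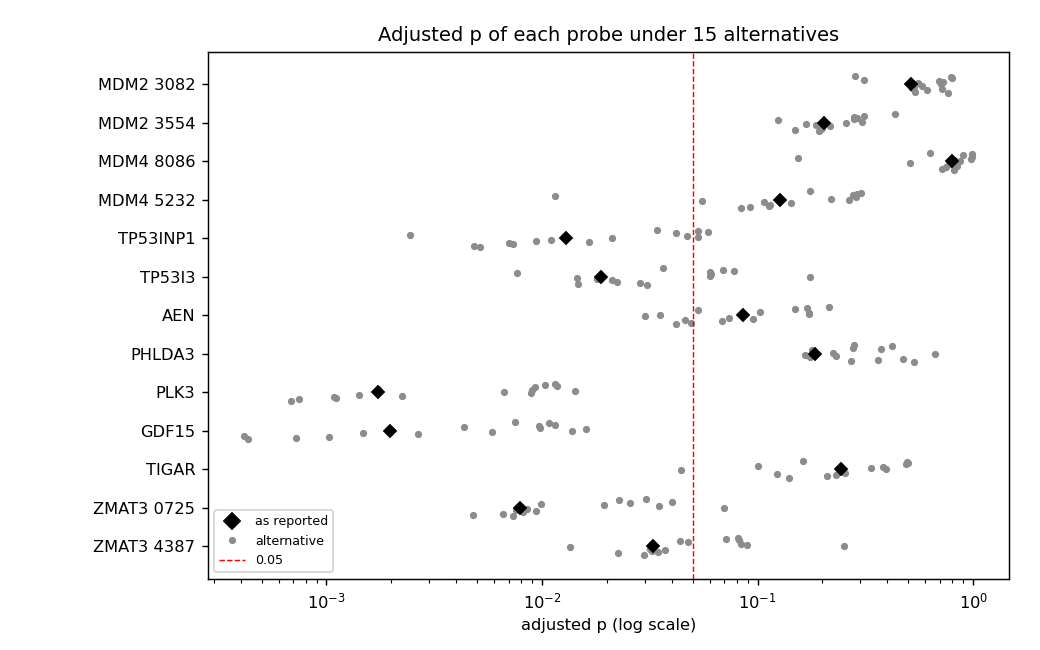
Adjusted p (log axis) of each of the 13 probes as reported (diamonds) and under each of 15 alternatives (grey), with a dashed line at 0.05. The points of PLK3 and GDF15 lie left of the line throughout, those of both MDM2 probes, the first MDM4 probe and PHLDA3 lie right of it, and those of TP53INP1, TP53I3, AEN, TIGAR, ZMAT3 and the second MDM4 probe fall on both sides.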

How the data were processed

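The authors deposited raw intensity on a linear scale (-2 to 65516), and each value came with a flag and a detection p-value. The sources used here do not give the extraction software or what the flags mean, so flags other than 0 were read as dim. The detection p-value deposited by the authors entered no test. The authors' second table holds intensity normalized with GeneSpring GX per the methods, and each column equals the raw column times 1 constant (0.9077 to 1.128), so it is a linear scaling whose rule remains unknown; it was used as an alternative.

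Here log2(raw intensity + 50) was quantile normalized over the 6 arrays and fitted with limma 3.58.1 in R 4.3.3 without covariates. The tests were two-sided, with Benjamini-Hochberg adjustment over 31741 probes. Of these, 24740 carried 1 symbol, 977 several and 6024 none, and 1948 symbols were updated. A gene is represented by its brightest probe, probes with several symbols were left out, and 4122 genes were dim on all arrays. Fold changes on this scale understate those of dim genes. The steps were tested on simulated data with independent noise and large changes planted in probes above the median brightness. Small changes, changes of dim probes and noise shared between probes were not simulated.

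The members and gene lists were chosen with earlier results of these data known. Each probe of the 10 genes is given. Of the other targets, up to 4 genes with the largest rise and 4 with the largest fall among those that passed are named, besides HOXA5 and CDKN1A. Of the regulators up to 3 in each direction are named, besides RPL11 for its saturation. Of the stress response list ATF4 and DDIT3 are named, besides VLDLR and ASNS, which were named after their values were seen. The cell type markers that were dim on all arrays are named besides, and KRT19, KRT7, KRT8 and APOA1 were named after their values were seen.

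Alternatives were 2 other scalings, the authors' values, offsets of 16 and 100, detected probes only, the replicate number as a block, an intensity trend, the methods' t-test, and leaving out each array. For gene counts the mean of a gene's detected probes was also tried. The methods' t-test gave 9526 probes under its threshold and 4133 after Benjamini-Hochberg. The number of arrays, 3 per group, limits the precision.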

Additional observations from a re-analysis of the deposited data

How the results depend on the processing

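Of the 10 genes, 3 to 4 were higher and 0 to 1 lower when each array was left out in turn; the lower gene, TP53I3, was lost without control replicate 1 or 2 or HOXA5 replicate 1 or 3. The count of lower genes, 1 as reported, was 2 with median scaling, 75th percentile scaling or detected probes only, 3 with the replicate block and 0 with the methods' t-test. Over all probes 6512 passed, against 2907 with the authors' normalized values, 4133 with the methods' t-test and 3531 to 8229 with an array left out, where the counts without control replicates 1, 2 and 3 were 3531, 4034 and 3962. Of the other p53 targets, 14 were higher, against 8 with the authors' values and 10 to 15 with an array left out. The 5 lower ones became 3 with median scaling, 75th percentile scaling or an intensity trend, 2 with the t-test, 8 with the mean of the detected probes, 8 with the replicate block and 2 to 5 with an array left out (3, 2 and 3 without control replicates 1, 2 and 3). The 3 higher regulators became 1 with median scaling, 75th percentile scaling, an offset of 16 or the t-test, 0 with the authors' values and 1 to 3 with an array left out, and each array other than HOXA5 replicate 2 gave 1. The 5 lower regulators became 8 with the replicate block. Only the MDM4 probe PH_hs_0048086 changed sign, to -0.020 (adjusted p = 0.992) without control replicate 2 and -0.048 (0.981) without HOXA5 replicate 1, with a range of -0.048 to 1.15 over the arrays left out. Whether the replicate numbers pair the samples could not be decided. Deviations from the group means correlated at -0.129, 0.691 and 0.755 over 16529 probes for numbers 1, 2 and 3. Control replicate 3 and HOXA5 replicate 1 correlated at 0.502. Deviations from a mean of 3 arrays depend on each other, so a low value for 1 number does not settle it. With the replicate block, 7756 probes passed. Dim probes such as those of FAS and the second MDM4 probe are limited by signal over background.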
